A study of Mus musculus with 3 samples.

Results

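The genes examined here are 8 Toll-like receptors (TLRs), *Tlr1*, *Tlr2*, *Tlr4*, *Tlr6*, *Tlr7*, *Tlr8*, *Tlr9* and *Tlr13*, with the adaptors *Myd88* and *Ticam1*. They were chosen by name, and all 10 were found among the 22238 genes listed in all 3 RNA-Seq libraries. All 3 libraries came from wild-type (WT) female C57BL/6J mice of 10 to 12 weeks with experimental autoimmune encephalomyelitis (EAE), a model of multiple sclerosis in which a myelin peptide (MOG) in complete Freund's adjuvant, with 250 ng of pertussis toxin at 2 and 24 h, starts an immune attack on the spinal cord. Cells were sorted at days 14 to 15. Bone marrow monocytes (BM-Mono) were CD45+ CD11b+ Ly6Chi and negative for Ly6G and CD11c, pooled from 13 mice of 2 experiments. Both spinal cord populations were CD45+ CD11b+ CD64+ and negative for Ly6G, each pooled from 18 mice of 3 experiments. The spinal cord monocytes (SC-Mono) were Ly6Chi and the monocyte-derived antigen-presenting cells (SC-APC) Ly6Clow/-. One field of the SC-APC label names bone marrow, whereas its title and tissue name the spinal cord, and the library was treated as spinal cord. There were no healthy mice among these groups, so each comparison is between cells of diseased animals, and the adjuvant and toxin are shared by all 3 groups. Spinal cords were digested with collagenase D and DNase I while warm and spun on a Percoll gradient. Bone marrow was flushed, and its monocytes were enriched with an isolation kit before sorting. Only the spinal cord gates selected for CD64, and only the bone marrow gate excluded CD11c. In each comparison with BM-Mono, tissue, preparation, sort gate and pool of mice thus differ together and cannot be told apart.

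TLRs are sensors of microbial and damaged-cell products. TLR2 (paired with TLR1 or TLR6), TLR4 and TLR5 sit at the cell surface and bind mainly lipopeptides, lipopolysaccharide and flagellin, while TLR3, TLR7, TLR8, TLR9 and TLR13 sit in endosomes and bind nucleic acids. TLR11 and TLR12 are endosomal too and bind profilin. Nearly all TLRs signal through MyD88 to NF-kappaB and inflammatory cytokines. TLR4 also uses TRIF, the product of *Ticam1*, to reach interferon genes, and TLR3 uses TRIF in place of MyD88. In monocytes and macrophages these receptors are a main route to cytokine production.

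With 1 library for each population there was no replicate check on any difference, and no p-value is given. Levels are TPM (a share of all transcripts, corrected for transcript length), rescaled to the same sum over the common genes, with 95% Wilson intervals. Fold changes are ratios of the estimated reads, scaled by the median ratio of all genes, with 98% intervals. Ratios of TPM came out lower than ratios of scaled reads, with a shift at the median gene of -0.22 (log2) between the monocytes and of -0.32 between SC-APC and BM-Mono. All intervals cover counting error only. A gene was called higher or lower where its 98% interval lay beyond a 2-fold change and either library had it over 3 TPM, and only called genes are said to have risen or fallen. Over the common genes, estimated reads totalled 32115707 in BM-Mono, 26116588 in SC-Mono and 28209327 in SC-APC. In bulk RNA, fewer cells of a type and less RNA per cell cannot be told apart.

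The makeup of the TLR transcripts differed between bone marrow and spinal cord. In BM-Mono the endosomal receptors made up 65.0% of the summed TPM of 12 TLR genes (the 8 above and *Tlr3*, *Tlr5*, *Tlr11* and *Tlr12*). In SC-Mono they made up 21.2%, and in SC-APC 28.8%. *Tlr2* carried a large part of this difference. Without it the endosomal shares were 79.0%, 57.0% and 66.0%, in the same order of libraries. *Tlr13*, a sensor of bacterial ribosomal RNA, was the most abundant TLR transcript in BM-Mono with 31.6% of the sum, against 9.0% in SC-Mono and 9.03% in SC-APC. *Tlr2* took the first place in both spinal cord populations, with 62.8% in monocytes and 56.3% in SC-APC, against 17.7% in bone marrow. These shares are taken within a library, so they do not depend on how libraries were scaled to each other, although the SC-APC values rest on another transcript set. The sum itself was 589 TPM in BM-Mono, 898 in SC-Mono and 669 in SC-APC.

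**Figure D1:**
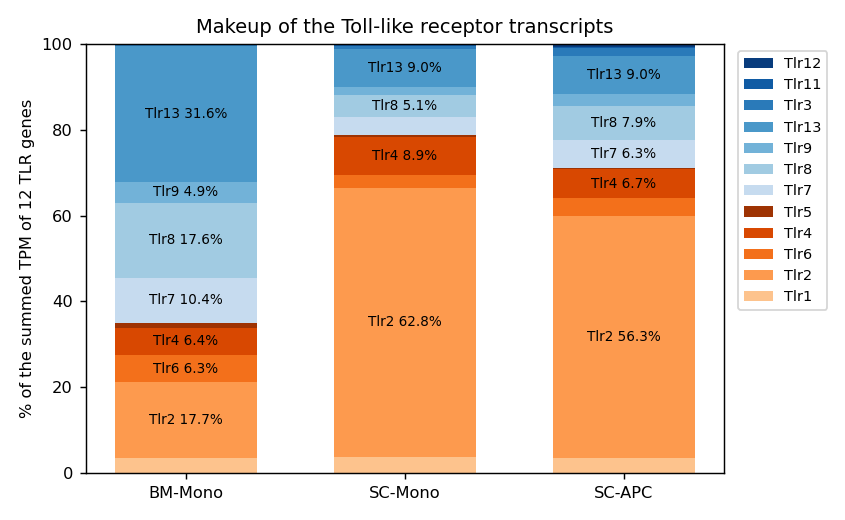
Share (%) of the summed TPM of 12 Toll-like receptor genes taken by each gene in the 3 libraries, with surface receptors in orange below and endosomal receptors in blue above. The blue part is 65.0% of the BM-Mono bar, 21.2% of the SC-Mono bar and 28.8% of the SC-APC bar, and *Tlr2* fills most of both spinal cord bars.

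The promoters of 3 genes are shown because they stand for the 3 patterns described next, a rise (*Tlr2*), a fall (*Tlr13*) and a level near that of bone marrow in SC-Mono (*Myd88*). They are RefSeq windows on GRCm38.p6, printed 5′ to 3′ on the gene's strand from 250 bases before the RefSeq start to 10 after it. Windows were held for 8 of the 10 genes, and *Tlr4* and *Tlr7* had none. The *Tlr2* window is chr3:83841599-83841858 (minus strand), with matches to the NF-kappaB consensus in capitals:
Tlr2: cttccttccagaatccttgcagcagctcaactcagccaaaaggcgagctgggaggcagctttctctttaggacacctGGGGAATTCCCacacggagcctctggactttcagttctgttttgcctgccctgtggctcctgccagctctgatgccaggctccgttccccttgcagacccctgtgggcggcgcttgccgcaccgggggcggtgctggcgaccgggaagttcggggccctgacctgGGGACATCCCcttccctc
The *Tlr13* window is chrX:106143025-106143284 (plus strand), with the PU.1 core GAGGAA in capitals:
Tlr13: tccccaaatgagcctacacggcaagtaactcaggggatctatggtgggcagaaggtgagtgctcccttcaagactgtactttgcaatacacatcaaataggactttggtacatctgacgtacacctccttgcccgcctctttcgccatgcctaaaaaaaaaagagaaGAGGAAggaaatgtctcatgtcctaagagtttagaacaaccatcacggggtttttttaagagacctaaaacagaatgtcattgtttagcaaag
The *Myd88* window is chr9:119340009-119340268 (minus strand), with the core of an interferon-stimulated response element (ISRE), GAAA, any 2 bases and GAAA, in capitals:
Myd88: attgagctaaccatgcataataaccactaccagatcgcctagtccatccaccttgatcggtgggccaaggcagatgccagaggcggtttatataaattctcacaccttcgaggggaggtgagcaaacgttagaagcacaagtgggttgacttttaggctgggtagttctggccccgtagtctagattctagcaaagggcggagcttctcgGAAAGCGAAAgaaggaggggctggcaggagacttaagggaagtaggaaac

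Matches were sought on both strands of windows of 300 bases, up to 50 after the start. In the *Tlr2* window the NF-kappaB consensus began 173, 172 and 8 bases before the start, and the first 2 matches overlap. The match at 8 bases lies inside the gene span of GENCODE, which reaches chr3:83841767. The consensus was in 8.46% of all 32851 promoter windows. The *Myd88* match began 40 bases before the RefSeq start, and lies inside the gene span of GENCODE, which reaches chr9:119341411. In addition, 1 of the *Tlr6* windows held the ISRE core, in overlapping matches 116 and 110 bases before its start. That window also lies inside the gene span of GENCODE, which reaches chr5:64960097. The ISRE core was in 3.44% of all windows. The PU.1 core was found for *Tlr13* (83 bases before the start), *Tlr8* (77), *Tlr1* (23, in 1 of its windows), *Ticam1* (30) and *Tlr9* (112, and again 12 after it). It was in 28.3% of all windows. The AP-1 core TGANTCA was found for *Tlr9* alone among the windows searched, 58 bases before the start, and in 7.81% of all windows. These are matches of letters and not measured binding.

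*Tlr2*, the receptor for bacterial lipopeptides, stood at 104.4 TPM (95% interval 101.8 to 107.0) in BM-Mono, 564 (558 to 571) in SC-Mono and 377 (372 to 382) in SC-APC. It was the lowest in bone marrow and the highest in SC-Mono, with no overlap of the intervals. It rose 6.70-fold from BM-Mono to SC-Mono, a log2 change of 2.74 (98% interval 2.70 to 2.79). In SC-Mono 3.30% of the genes over 3 TPM stood above it, against 15.6% in BM-Mono. Its gene lies at chr3:83836272-83841767 on the minus strand (GRCm38).

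*Tlr4*, the lipopolysaccharide receptor (chr4:66827584-66930284, plus strand), stood at 37.7 TPM in BM-Mono, 79.6 in SC-Mono and 44.8 in SC-APC. It was highest in SC-Mono. By TPM the SC-APC level was nearer to BM-Mono, whereas by scaled reads it was nearer to SC-Mono (log2 -0.54) than to BM-Mono (0.76). It rose 2.43-fold from BM-Mono to SC-Mono (log2 1.28, 1.2 to 1.36). That call was lost with the ratio of TPM in place of scaled reads (log2 1.08), with all genes of the monocyte libraries (1.06) and with an assumed spread between libraries at a coefficient of variation of 0.2 or 0.4.

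The 2 partners of TLR2 had opposite orders. *Tlr1* stood at 20.2 TPM in BM-Mono, 33.3 in SC-Mono and 23.7 in SC-APC, with a log2 change of 0.88 (0.72 to 1.05) between the monocytes, which was not called. *Tlr6* had 37.3 TPM in BM-Mono, 25.7 in SC-Mono and 27.9 in SC-APC, with a log2 change of -0.51 (-0.66 to -0.36), also not called. Thus *Tlr6* was above *Tlr1* in bone marrow, at a ratio of 1.85 (95% interval 1.69 to 2.02), and below it in SC-Mono, at 0.772 (0.701 to 0.849). In SC-APC the ratio was 1.18 (1.07 to 1.29), although by reads *Tlr6* (684) stood below *Tlr1* (1290) there. The estimated effective lengths of *Tlr6* and *Tlr1* were 1175 and 2612 bases in SC-APC, against 1758 and 1748 in BM-Mono. That interval does not cover this difference in lengths. The 2 genes are neighbours on the minus strand of chromosome 5, with 18467 bases between them. Of the 3332 stretches of 50 bases in *Tlr1* transcripts, 454 are also in *Tlr6*, so reads from these stretches were divided between both genes by the estimate of the quantification, and their separate values are less certain than the others. *Tlr2* outweighed both partners in every library. The ratio of *Tlr2* to *Tlr1* was 5.18 in BM-Mono, 17.0 in SC-Mono and 15.9 in SC-APC.

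**Figure D2:**
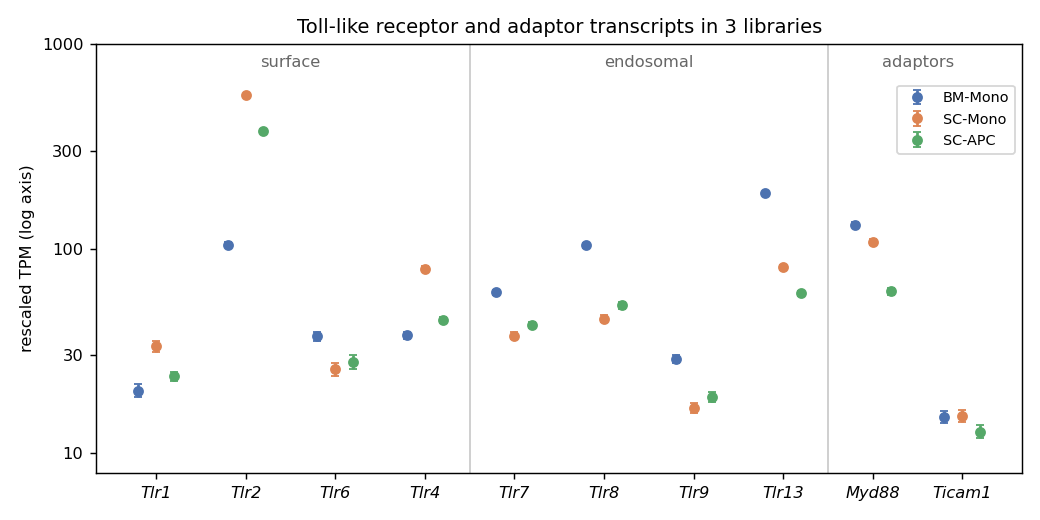
Rescaled TPM (log axis) of the 10 genes in each library, with 95% Wilson intervals that cover counting error only and are mostly smaller than the points. *Tlr2* and *Tlr4* are highest in SC-Mono, while all 4 endosomal receptors are highest in BM-Mono by TPM, an order that turned for *Tlr7* between SC-APC and BM-Mono under 1 scaling of reads (log2 0.11).

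All 4 endosomal receptors had their highest TPM in BM-Mono, although for *Tlr7* size factors over active genes put SC-APC above BM-Mono (log2 0.11). *Tlr13* (chrX:106143204-106160493, plus strand) stood at 186 TPM (183 to 189) there, 80.9 (78.7 to 83.2) in SC-Mono and 60.4 (58.7 to 62.1) in SC-APC. It was the only one of the 10 genes that fell between the monocytes, by 1.12 on the log2 scale (98% interval -1.17 to -1.06), which is 2.17-fold lower. The change lay close to the 2-fold limit, and the call was lost with reads divided by effective length (-0.98), with size factors over active genes (-0.94) and with either assumed spread.

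*Tlr8* and *Tlr7*, paralogs that bind single-stranded RNA and lie 40599 bases apart on the minus strand of the X chromosome, had the same order of libraries as each other. *Tlr8* stood at 103.8 TPM in BM-Mono, 45.4 in SC-Mono and 52.8 in SC-APC (log2 -0.87 between the monocytes, -0.95 to -0.78). *Tlr7* stood at 61.1, 37.4 and 42.4 TPM (log2 -0.32, -0.41 to -0.24). Neither was called, although *Tlr8* was called lower by the ratio of TPM (-1.19) and with all genes of the monocyte libraries (-1.09). *Tlr7* thus stood at 0.588 of the *Tlr8* level in bone marrow (0.565 to 0.613) and at 0.824 (0.777 to 0.874) in SC-Mono.

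*Tlr9*, the receptor for CpG DNA (chr9:106222598-106226883, plus strand), was the least abundant endosomal receptor among the listed genes. It stood at 28.7 TPM in BM-Mono, 16.6 in SC-Mono and 18.8 in SC-APC. Its log2 change between the monocytes was -0.48 (-0.61 to -0.35), not called. By TPM, the 2 spinal cord populations were closer to each other than either was to bone marrow for all 4 endosomal receptors. By scaled reads this did not hold for *Tlr7*, whose SC-APC value was nearer to BM-Mono (log2 -0.08, -0.16 to 0.00) than to SC-Mono (0.23).

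*Myd88*, the adaptor of nearly all TLRs and of the interleukin 1 receptor (chr9:119335934-119341411, minus strand), stood at 131 TPM (127 to 135) in BM-Mono, 107 (104 to 111) in SC-Mono and 61.7 (59.2 to 64.3) in SC-APC. Its scaled reads gave a log2 change of 0.03 (-0.05 to 0.10) between the monocytes, and its direction there changed with the scaling, from -0.29 to 0.20 over 7 scalings. From SC-Mono to SC-APC the log2 change was -0.83 (-0.92 to -0.74), and it was negative in all 6 scalings. By scaled reads it was the largest of the 10 in size, whereas with effective length *Tlr4* (-0.75) was ahead of *Myd88* (-0.72). It was short of the 2-fold limit, and 4.54% of the genes tested stood lower. *Acaa1a*, a peroxisomal thiolase gene on the opposite strand, and *Slc22a14*, on the same strand, overlap *Myd88*. Of the 2616 stretches of 50 bases of *Myd88*, 194 are shared with *Acaa1a*, the only gene found to share any. *Acaa1a* stood at 85.7, 81.2 and 47.8 TPM, with a log2 change of -0.83 in the same step. The part of shared reads in the *Myd88* value was not tested.

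*Ticam1*, which encodes the adaptor TRIF (chr17:56269319-56276786, minus strand), stood at 15.1 TPM (14.1 to 16.1) in BM-Mono, 15.2 (14.2 to 16.3) in SC-Mono and 12.7 (11.8 to 13.7) in SC-APC. It was the lowest of the 10 genes in each library, although its interval overlapped that of *Tlr9* in SC-Mono, and its own intervals in the 2 monocyte libraries overlapped. It was not called, with log2 changes of 0.32 (0.16 to 0.49) and -0.28 (-0.46 to -0.11) in the 2 steps. The ratio of *Myd88* to *Ticam1* went from 8.70 (8.11 to 9.36) in BM-Mono through 7.06 (6.55 to 7.63) in SC-Mono to 4.85 (4.46 to 5.27) in SC-APC. *Myd88* stood above *Tlr2* in bone marrow, at a ratio of 1.25, and far below it in SC-Mono, at 0.190, and SC-APC, at 0.164.

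Counted together, 2 of the 10 genes rose (*Tlr2* and *Tlr4*) from BM-Mono to SC-Mono, where 13.6% of 10072 genes tested were called higher, and 1 fell (*Tlr13*), where 11% were called lower. The median log2 change of the 10 genes was -0.15, against -0.17 over all genes tested. From SC-Mono to SC-APC, 0 of the 10 were called by this interval in either direction, where 1.94% of 9734 genes were called higher and 1.66% lower. The share called in that step was so small that 0 of 10 is no result about these genes. Their median was -0.21 and that of all genes -0.03. *Tlr2* (-0.61, -0.64 to -0.58) and *Tlr4* (-0.54, -0.61 to -0.46) had negative log2 changes in this step in all 6 scalings. *Tlr7* (0.23), *Tlr8* (0.14) and *Tlr9* (0.15) had small positive ones, also in all 6, while *Tlr13* had -0.22. The sign for *Tlr1* (0.20) and *Tlr6* (-0.21) turned with effective length, which gave -0.41 and 0.20. The estimated effective length of *Tlr1* was 1.67 times as long in the SC-APC library as in that of SC-Mono. That of *Tlr4* was 1.26 times as long and that of *Tlr6* 0.82 times, and 25.5% of active genes differed by over 1.2 times in either direction. The SC-APC values were made on another transcript set.

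**Figure D3:**
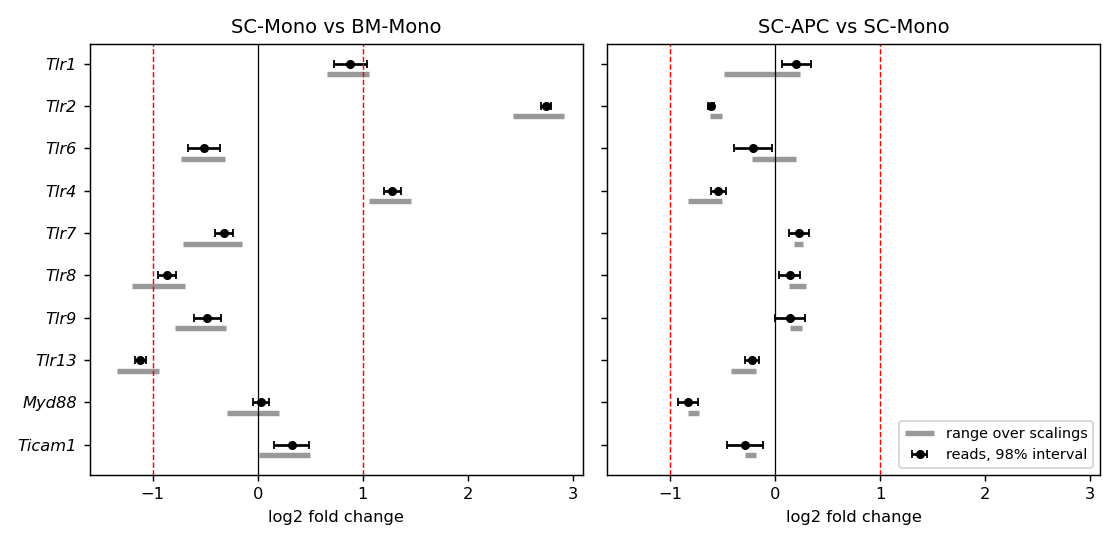
Log2 fold changes of the 10 genes from BM-Mono to SC-Mono (left) and from SC-Mono to SC-APC (right), with 98% intervals of counting error in black, the range over other scalings in grey and the 2-fold limits in red. *Tlr2* and *Tlr4* lie beyond the upper limit and *Tlr13* beyond the lower one on the left, where the grey range of *Tlr13* crosses the limit and that of *Myd88* crosses 0, and on the right no gene reaches a limit and the grey ranges of *Tlr1* and *Tlr6* cross 0.

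Against the same bone marrow library, SC-APC had *Tlr2* 4.44-fold higher (log2 2.15, 2.10 to 2.20) and *Tlr13* 2.49-fold lower (log2 -1.32, -1.37 to -1.26), the only 2 of the 10 genes called by scaled reads. In this comparison 14% of 10190 genes were called higher and 11.7% lower. *Tlr1* was 2.15-fold higher, with an interval (0.95 to 1.26) that reached below the limit. With effective length its log2 change was 0.57, and the ratio of TPM gave 0.23. *Tlr4* was at a log2 change of 0.76 (0.67 to 0.84). The comparison shares its bone marrow library with the first step and its SC-APC library with the other step.

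Of the other TLR genes, *Tlr3*, the receptor for double-stranded RNA, stood at 1.64 TPM in BM-Mono, 6.62 in SC-Mono and 12.7 in SC-APC, so that it was lowest in bone marrow, where the 4 listed endosomal receptors had their highest TPM. It rose 5.26-fold between the monocytes (log2 2.39, 1.98 to 2.83). *Tlr3* passed the level threshold through SC-Mono alone in that step, so it could only be called higher. *Tlr12* stood at 0.225, 2.82 and 4.47 TPM, and was called higher in SC-APC than in BM-Mono, where it passed the threshold through SC-APC alone. The flagellin receptor *Tlr5* stood at 6.61, 4.99 and 2.90 TPM and was not called. *Tlr11* was at 1.17 TPM or less in each library, below the level needed for a call.

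The libraries held all 8 monocyte markers over 3 TPM, with summed levels of 11135, 9631 and 3948 TPM in BM-Mono, SC-Mono and SC-APC. The 8 did not move together. *Ly6c2*, a gene for the Ly6C by which the spinal cord populations were parted, stood at 5205, 3602 and 1067 TPM, and *Plac8* at 2564, 3506 and 500. *Csf1r* was instead highest in SC-APC (374, 676 and 1134), and *Itgam* was at 485, 533 and 510. Markers of other cells moved with the populations. The 10 microglia markers summed to 19.2, 198 and 486 TPM in the same order, with *Sparc* the highest in SC-APC at 148 TPM and *Sall1* and *Slc2a5* at 0 reads in bone marrow. The numbers over 3 TPM were 2, 9 and 10. *Tlr3* and *Tlr12* had the same order of libraries, whereas *Tlr2* and *Tlr4* were highest where these markers were intermediate, and the part of microglia in these values was not tested. The 8 neutrophil markers summed to 1237, 183 and 407 TPM, with *Mmp8* the highest in BM-Mono at 707 TPM and 6, 6 and 5 of the 8 over 3 TPM. *Retnlg* (1.77, 16.7 and 57.9 TPM) and *Ltf* (27.6, 9.76 and 34.1) were instead highest in SC-APC. All 3 gates took Ly6G-negative cells, a step the paper used to exclude neutrophils, and *Ly6g* was at 2.57 TPM or less. The other markers of this list had reads in every library. Whether Ly6G-negative cells of the neutrophil lineage passed the gates was not tested. By TPM, *Tlr13*, *Tlr8*, *Tlr7*, *Tlr9*, *Tlr6* and *Myd88* were also highest in bone marrow. A set of 7 B cell markers summed to 200.9, 26.6 and 126 TPM, mostly *Ighm* in BM-Mono (192 TPM) and *Ebf1* in SC-APC (81.3). *Tlr6*, *Tlr7*, *Tlr8* and *Tlr9* had the same order of libraries by TPM. The 6 markers of plasmacytoid dendritic cells, which are rich in TLR7 and TLR9, summed to 23.0, 40.5 and 81.7 TPM, with *Klk1* at 0 in each library. They share *Siglech* with the microglia markers, and without it the sums were 22.9, 25.3 and 37.3. The 8 T cell markers summed to 0.527, 78.9 and 105 TPM, the 6 of CNS macrophages to 15.7, 36.8 and 51.1, and the 5 endothelial ones to 17.2, 73.5 and 45.0. Of the CNS macrophage markers 2, 3 and 3 were over 3 TPM. Among them *Cbr2* (3.68, 1.05 and 0.613 TPM) and *Cd163* (0.339, 0.143 and 0.128) were instead highest in BM-Mono, and *Lyve1* had 2 reads or fewer in each library. The 6 of conventional dendritic cells summed to 40.8, 21.3 and 28.3 TPM, of which *Flt3* was 37.8 in BM-Mono, and the other 5, all lowest in BM-Mono, summed to 3.01, 17.6 and 21.7. The part of these cells in the TLR values was not tested.

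Accessory proteins of the TLRs, which deliver ligands or move receptors to endosomes, were measured with 18 genes, 17 of them over 3 TPM. In the first step 4 rose (*Cd14*, *Cd36*, *Slc15a3* and *Pld3*) and 1 fell (*Lbp*), with a median log2 change of 0.18, where over all genes tested 13.6% were called higher and 11% lower and the median was -0.17. *Cd36*, at 1.49 TPM in BM-Mono, passed the level threshold through SC-Mono alone. *Cd14*, the co-receptor that passes lipopolysaccharide to TLR4, stood at 92.5 TPM in BM-Mono, 2447 in SC-Mono and 1378 in SC-APC, a 35.4-fold rise between the monocytes. Its serum partner *Lbp*, which lifts lipopolysaccharide from membranes, stood at 40.7, 5.76 and 1.72 TPM and fell in both steps (log2 -2.20 and -1.71). In the step to SC-APC it passed the level threshold through SC-Mono alone, so it could only be called lower there.

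*Slc15a3*, an endolysosomal peptide and histidine transporter, stood at 59.4, 327 and 247 TPM, and its log2 changes in the 2 steps (2.76 and -0.53) were the nearest to those of *Tlr2* among the genes of all lists, at a distance of 0.08. Of 10307 active genes, 30 lay within 0.25 of *Tlr2*. *Pld4*, an endolysosomal exonuclease that degrades single-stranded nucleic acids, was the most abundant accessory gene in BM-Mono, at 684 TPM against 340 in SC-Mono and 271 in SC-APC, and was not called. In the step from SC-Mono to SC-APC, 1.94% of all genes tested were called higher and 1.66% lower. *Lbp*, which passed the level threshold through SC-Mono alone, was the only accessory gene called there by scaled reads. With effective length, *Cd36* and *Pld3* were called higher there too.

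Of 25 signalling genes downstream of the receptors, 6 rose in the first step and 1 fell. The risen genes were *Irak2*, *Traf6*, *Traf3*, *Ikbke*, *Irf7* and *Pik3ap1*, and the median was 0.15, against 13.6% called higher, 11% lower and a median of -0.17 over all genes tested. *Irak2*, a kinase of the MyD88 complex that sustains signalling, stood at 33.0, 239 and 91.7 TPM in BM-Mono, SC-Mono and SC-APC, a 6.06-fold rise in scaled reads. *Irf7*, the interferon regulatory factor that works with MyD88 below TLR7 and TLR9, stood at 48.8, 224 and 120 TPM and rose 5.48-fold. *Ticam2*, which encodes TRAM, the bridge between TLR4 and TRIF, fell by 1.32 on the log2 scale, from 45.7 to 15.2 TPM, and was at 15.4 in SC-APC. *Irf5*, a factor that MyD88 activates, was the most abundant of these genes at 317, 294 and 223 TPM and was not called. In the other step 0 of 25 were called by scaled reads, where 1.94% of all genes tested were called higher and 1.66% lower. At such small shares, 0 of 25 is no result about these genes. By effective length 2 of the 25 were called lower, *Irak2* among them, and its effective length was 1.74 times as long in the SC-APC library.

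Of 12 genes that restrain TLR signalling, 10 were over 3 TPM, and in the first step 4 rose and 1 fell, against the same shares of 13.6% and 11% over all genes. *Tnfaip3*, the ubiquitin-editing enzyme A20, stood at 13.2, 555 and 415 TPM (57.0-fold between the monocytes), and *Nfkbia*, the inhibitor of NF-kappaB, at 167, 1422 and 873 TPM (10.6-fold). *Tnip3*, an A20-binding protein, stood at 0.260, 31.3 and 16.0 TPM, and so passed the level threshold through SC-Mono alone in that step. *Tnip1* rose too. *Sigirr*, an inhibitory receptor that damps interleukin 1 and TLR signals, fell by 1.74 on the log2 scale, from 23.4 to 4.78 TPM, and was at 6.04 TPM in SC-APC. None of the 10 was called from SC-Mono to SC-APC, where only 1.94% of all genes tested were called higher and 1.66% lower.

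Genes that TLR ligands are known to induce stood far apart from the receptors themselves. Of 14 such genes 12 were over 3 TPM in the first step, and 12 rose, where 13.6% of all genes tested were called higher. The median log2 change of the 12 was 7.16 when *Il10*, at 0 reads in BM-Mono, was held at a floor of 3 reads, and 7.5 as fitted. A gene under 3 TPM in BM-Mono could pass only by being higher in SC-Mono, so this count is a description. These genes also respond to interleukin 1, tumour necrosis factor and interferons, so their level is not a measure of TLR use. *Il1b*, a cytokine precursor, stood at 6.37 TPM in BM-Mono, 3821 in SC-Mono and 2899 in SC-APC. *Ptgs2*, which encodes cyclooxygenase 2, stood at 1.26, 580 and 520 TPM, and the chemokine *Cxcl2* at 33.1, 3315 and 2666. In the step to SC-APC *Il12b*, a subunit of interleukins 12 and 23, rose 13.02-fold, from 0.952 to 12.8 TPM. It passed the level threshold through SC-APC alone, so it could only be called higher. *Cxcl10*, an interferon-induced chemokine, fell by 1.65 on the log2 scale, from 1423 to 444 TPM, after standing at 10.1 in bone marrow.

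**Figure D4:**
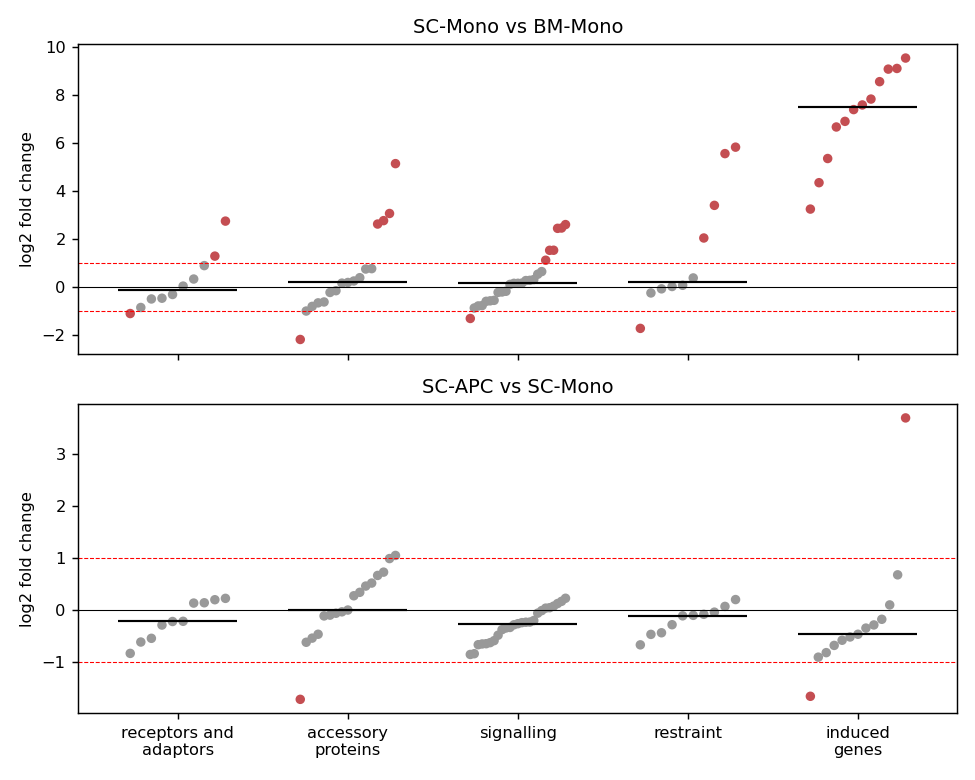
Log2 fold changes (scaled reads) of the active genes of each list in the 2 steps, one point per gene in order of size, with called genes in red, list medians of fitted values as black lines and 2-fold limits dashed (the vertical scales of the panels differ). The receptors and adaptors spread around 0 in both steps, while the induced genes lie between 3.25 and 9.56 in the upper panel.

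By the same distance, the gene of these lists nearest to *Myd88* was *Chuk* (an I-kappaB kinase subunit, at 0.07), with log2 changes of 0.10 and -0.85, and 97 active genes lay within 0.25 of *Myd88*. The nearest to *Tlr4* was *Ikbke* (0.21), to *Tlr13* *Map3k7* (0.32), to *Tlr8* *Irak4* (0.09), to *Tlr6* *Tirap* (0.06), to *Tlr7* *Cnpy3* (0.20), to *Tlr9* *Tab2* (0.11), to *Tlr1* *Rftn1* (0.24) and to *Ticam1* *Ripk1* (0.08). With 1061 active genes within 0.25 of *Tlr9* and 968 of *Tlr7*, this likeness over 3 libraries singles out little for the genes that changed least. With effective length the nearest gene stayed the same for 4 of the 10, *Tlr1*, *Tlr2*, *Tlr4* and *Tlr9*, and *Chuk* then lay 0.87 from *Myd88*.

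Within each library the order of the 10 genes was mostly resolved by counting error. In BM-Mono it ran *Tlr13*, *Myd88*, *Tlr2*, *Tlr8*, *Tlr7*, *Tlr4*, *Tlr6*, *Tlr9*, *Tlr1* and *Ticam1*, and the intervals of *Tlr2* and *Tlr8* and those of *Tlr4* and *Tlr6* overlapped. In SC-Mono it ran *Tlr2*, *Myd88*, *Tlr13*, *Tlr4*, *Tlr8*, *Tlr7*, *Tlr1*, *Tlr6*, *Tlr9* and *Ticam1*, with overlap between *Tlr13* and *Tlr4* and between *Tlr9* and *Ticam1*. In SC-APC it ran *Tlr2*, *Myd88*, *Tlr13*, *Tlr8*, *Tlr4*, *Tlr7*, *Tlr6*, *Tlr1*, *Tlr9* and *Ticam1*, and the pairs that overlapped were *Myd88* with *Tlr13* and *Tlr4* with *Tlr7*. *Tlr6* was above *Tlr1* there by TPM but not by reads.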

How the data were processed

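RNA of 3 sorted populations was sequenced as 1 pooled library each, from 50-base paired reads. The authors estimated expression with Salmon 0.14.1 on GENCODE vM22 (mm10). They deposited TPM, normalized for effective length and library size, and estimated counts of reads per gene, not normalized and partly fractional where a read was shared. The SC-APC values cover 22242 genes and the monocyte values 54432. Why the transcript sets differ is not given in the sources used here. The 22238 common genes, with 84.9% and 85.3% of the TPM of bone marrow and spinal cord monocytes, were compared, with estimated counts rounded to whole reads.

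The definition of GFold was computed anew. Reads plus 1 were taken as gamma shapes, divided by size factors of the pair (median of ratios), and the posterior of their ratio was read at percentiles 1 and 99. Calls required that bound to lie beyond 2-fold and either library to have over 3 rescaled TPM. The paper's level threshold is on log2 TPM and was read as one on log2 of TPM plus 1, with 4 TPM as an alternative. The calculation was tested on simulated data. The 10 genes and the gene lists were chosen with earlier results of these data known. Beside the 10 genes, the text names the 2 most abundant genes of each list, up to 2 called genes with the largest change per direction and step, and for each member the nearest list gene by the log2 changes of both steps. Other called genes were named after their values were seen. GENCODE M21 on GRCm38, which holds all 10 identifiers unchanged, gave positions and shared 50-base stretches, and RefSeq GRCm38.p6 the promoters. Alternatives covered scaling, effective length, level threshold, interval bound, reads added and an assumed spread between libraries. The tools were scipy 1.17.1, numpy 2.4.6, pandas 2.3.3 and matplotlib 3.10.9 under Python 3.11.15. TMM factors alone came from edgeR 4.0.16 in R 4.3.3.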

Additional observations from a re-analysis of the deposited data

How the results depend on the processing

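Over all alternatives 370 log2 changes of the 10 genes were recomputed. The sign changed in 11, none of them called, and the call changed in 16. Scaling by size factors over active genes and by the ratio of rescaled TPM was added after seeing the data. In SC-Mono against BM-Mono, the genes called higher were 1 with an assumed coefficient of variation of 0.2 (*Tlr2*), 0 with 0.4 and 1 by the TPM ratio (*Tlr2*), against 2 as reported. The genes called lower were 0 with either assumed spread, with effective length and with active-gene size factors, and 2 by the TPM ratio (*Tlr8* and *Tlr13*), against 1. In SC-APC against BM-Mono, genes called higher were 0 with a coefficient of 0.4 and 2 with a plain 2-fold change or active-gene size factors (*Tlr1* and *Tlr2*), and genes called lower were 0 with either assumed spread, against 1 each. The endosomal share was 70.0% by reads and 65.6% over the 8 listed receptors in BM-Mono, 23.1% and 20.4% in SC-Mono, and 31.7% and 26.9% in SC-APC. Without *Tlr2*, an alternative also added after seeing the data, it was 79.0%, 57.0% and 66.0%.

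Over all genes tested between the monocytes, 1369 were called higher and 1104 lower, so 55.4% of the calls were higher. That share was 63.9% with active-gene size factors, which shifted the median gene by 0.18, 42.9% by the TPM ratio, 47.1% by total reads (shift -0.16) and 46.3% with all genes of the monocyte libraries (shift -0.22). The numbers called were 896 and 451 with a coefficient of variation of 0.2, 619 and 218 with 0.4, and 2591 and 1211 with no threshold on TPM. From SC-Mono to SC-APC, 189 and 162 genes were called, against 232 and 324 with effective length, 202 and 389 by the TPM ratio, 331 and 293 by a plain 2-fold change, 389 and 288 with no threshold on TPM, and 84 and 35 or 42 and 14 with the assumed spreads. None of the 10 genes was called in that step by any of these. For SC-APC against BM-Mono the higher share of calls was 54.5%, with 63.2% by active-gene size factors and 37.2% by the TPM ratio.

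No paired analysis was possible because each population has 1 library. No library was left out, and the spread between mice is unknown. An assumed coefficient of variation of 0.4 widened the interval of the *Tlr2* change between the monocytes to 0.91 to 4.57. Counting error was small for these genes, which had 684 to 29944 reads.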
